A study of Mus musculus with 6 samples.

Results

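The motile axoneme is the microtubule shaft that lets the cilia of airway epithelial cells beat, and 35 genes that build it or mark the cells that carry it were followed here through injury of the mouse trachea. A gene was a member when its symbol was in a list of axonemal dyneins, dynein assembly factors, radial spoke, central pair, nexin link and tektin genes and ciliated cell markers, and when the array annotation gave a probe set that single symbol. All 35 listed genes were found, on 50 probe sets, out of 18193 genes and 45101 probe sets on the array. Where a gene had several probe sets, the brightest on average over all pools stands for it.

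The injured group (48 hpi) came from male C57Bl/6 mice, 8 to 12 weeks old, that had breathed 500 ppm SO2 for 4 h and whose tracheas were taken 48 h later. SO2 gas kills the luminal cells of the airway and leaves basal stem cells behind, from which the epithelium is rebuilt. The control group came from uninjured male C57Bl/6 mice, whose age is not given separately. Each group had 3 samples, and each sample was a pool of epithelial cells from 4 tracheas. The epithelium was loosened with Dispase, peeled and trypsinized, and CD45+ leukocytes were depleted with magnetic beads from both groups. The pools hold all remaining epithelial cell types, unsorted. RNA was amplified and hybridized to Affymetrix Mouse Genome arrays, and levels are given as log2 values after robust multi-array averaging (RMA), so that a difference of 1 is a doubling of signal.

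Motile cilia bend because dynein motors, held in an outer and an inner row of arms on doublet microtubules, walk along the neighbouring doublet. Radial spokes and a central pair of microtubules time the motors, nexin links limit the sliding, and tektins and other proteins inside the doublets stiffen them. In the trachea multiciliated cells use this machine to move mucus, and the transcription factors Foxj1 and those of the RFX family are known to switch on its genes.

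In control pools 28 of the 35 genes were above the array background, among them Tekt1, Rsph1, Ccdc39, Hydin, Tppp3, Pifo, Cdhr3 and Dynlrb2, which had been set as markers of ciliated cells. Foxj1, a marker that is not on the list, was above it too. Background was set at the 95th percentile of 79 probe sets of olfactory, vomeronasal and trace amine receptors, genes not known to be active in the trachea, and lay at 4.81 in the 48 hpi pools and 4.94 in the control pools. The pooled nature of the samples sets a limit on every result below, since fewer ciliated cells and less RNA per ciliated cell cannot be told apart.

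Most of the axoneme genes were lower at 48 hpi. Of the 35 genes, 28 fell, 1 (Mns1) rose and 6 (Dnah11, Zmynd10, Spag6, Ccdc65, Iqcg and Stk33) did not pass the test, which was limma over all genes with a Benjamini-Hochberg adjusted p below 0.05. Over all genes tested, 17.5% were called lower and 19.4% higher. The median change of the 35 genes was −1.09 on the log2 scale, against −0.02 over all genes. All 48 hpi pools lay below all control pools in 27 of the 35 genes, and in 25.1% of all genes. The number of genes called lower dropped to 15 without control pool 2, 16 without control pool 3 and 17 without 48 hpi pool 3. Dnah9, Hydin, Fam183b, Tppp3, Cdhr4 and Tmem212 were the 6 genes called lower under every alternative analysis that could test them. The call of Dnaic1, Dnaic2, Dnal1, Dnali1, Lrrc6, Tekt1, Tekt2, Tekt4, Rsph1, Lrrc23, Ccdc39, Ccdc40 and Pifo (13 of the 28) was lost when at least 1 of the 6 pools was left out, and that of the other 15 was kept without each pool in turn.

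**Figure D1:**
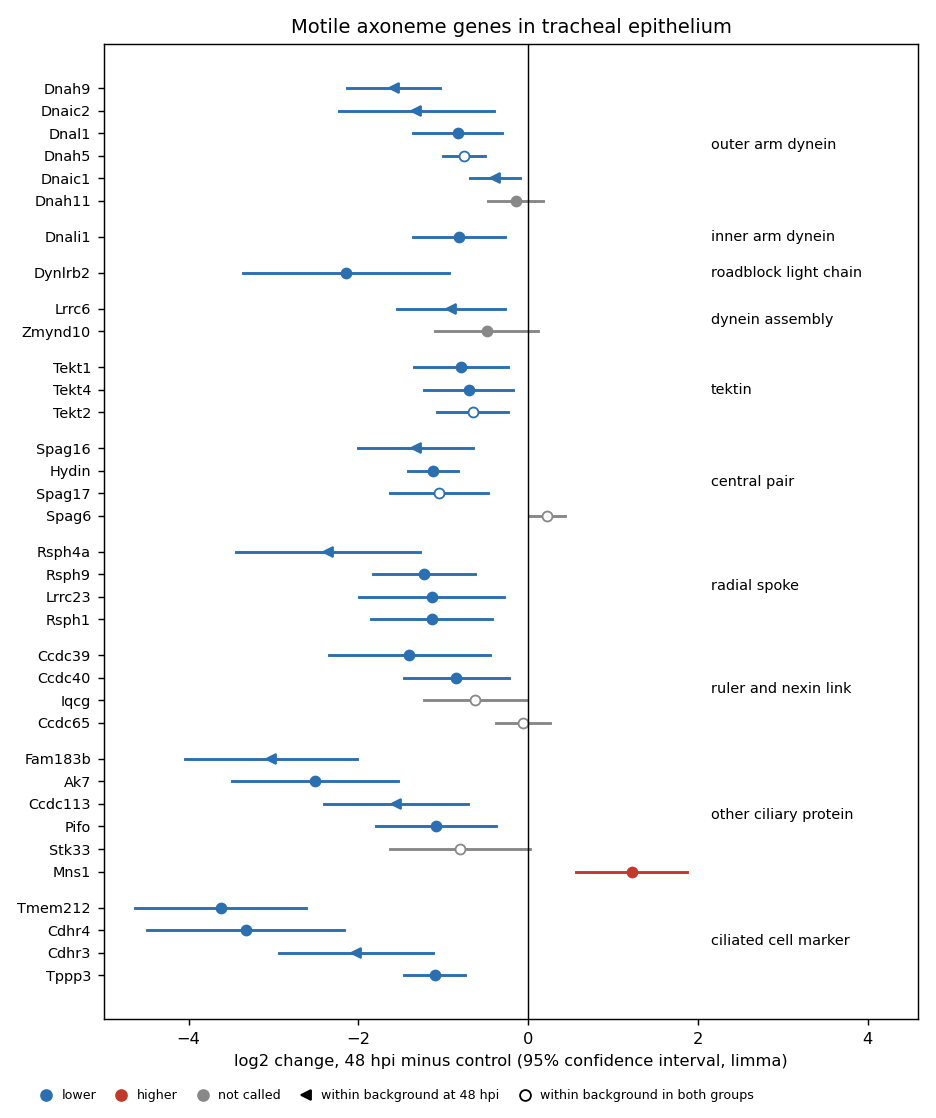
Change of each of the 35 axoneme genes (log2, 48 hpi minus control, x axis), grouped by role, with the 95% confidence interval of limma as a bar; colour gives the call, triangles are genes within background at 48 hpi, whose fitted change is not a measured size, and open points are genes within background in both groups. Of the 35 points, 33 lie left of 0, and Mns1 is the one called higher.

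Background matters for how far these falls can be read. In 19 of the genes both groups stood above background, and of these 16 fell, 1 rose and 2 did not pass the test, with a median change of −1.10. Among those 16, the fall reached at least 2 on the log2 scale in 4 genes, lay between 1 and 2 in 7 and was under 1 in 5. Another 9 genes that fell were above background in control pools and within it at 48 hpi, so that their fold change is a lower bound. With these 9 at their bound, the median change of the 28 genes above background in at least 1 group was −1.09. The remaining 7 genes (Dnah5, Tekt2, Spag6, Spag17, Ccdc65, Iqcg and Stk33) were within background in both groups, so that a call there rests on differences between dim signals and no fold is given.

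The 4 genes listed only as ciliated cell markers (Tmem212, Cdhr4, Cdhr3 and Tppp3) all fell. They share Cdhr3 and Tppp3 with the markers named above. Foxj1, a marker that is not on the list, did not pass the test (change −0.04, adjusted p = 0.95). Tmem212 and Cdhr4 fell the most of the listed genes above background in both groups. Tmem212, a transmembrane protein gene, read 6.14, 6.25 and 4.89 in the 48 hpi pools, against 8.65, 10.13 and 9.35 in the control pools. The highest 48 hpi pool was thus well below the lowest control pool, and the fall of 3.62 (SE 0.44, adjusted p = 0.00053) is 12.3-fold (95% confidence interval 6.13 to 24.7). Cdhr4, a cadherin-related gene, read 5.13, 6.18 and 5.66 at 48 hpi, against 7.75, 9.90 and 9.30 in controls, and fell by 3.33 (SE 0.50, adjusted p = 0.0015). Its groups were also clearly apart, and its second probe set fell at least 1.96-fold to within background. Cdhr3, whose human protein is a receptor for rhinovirus C, read 5.23, 4.95 and 4.16 at 48 hpi, against 5.99, 7.53 and 6.91 in controls. Its 48 hpi mean lay within background, so on the group means the fall is at least 3.99-fold (adjusted p = 0.0047). The lower end of its fitted 95% confidence interval is 2.17-fold.

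Tppp3, a tubulin-binding protein gene, fell less but with little spread. It read 9.77, 9.78 and 9.21 in the 48 hpi pools, against 10.59, 10.69 and 10.78 in the control pools. The groups did not overlap, and the fall of 1.10 (SE 0.16, adjusted p = 0.0011) is 2.14-fold (95% confidence interval 1.67 to 2.76).

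**Figure D2:**
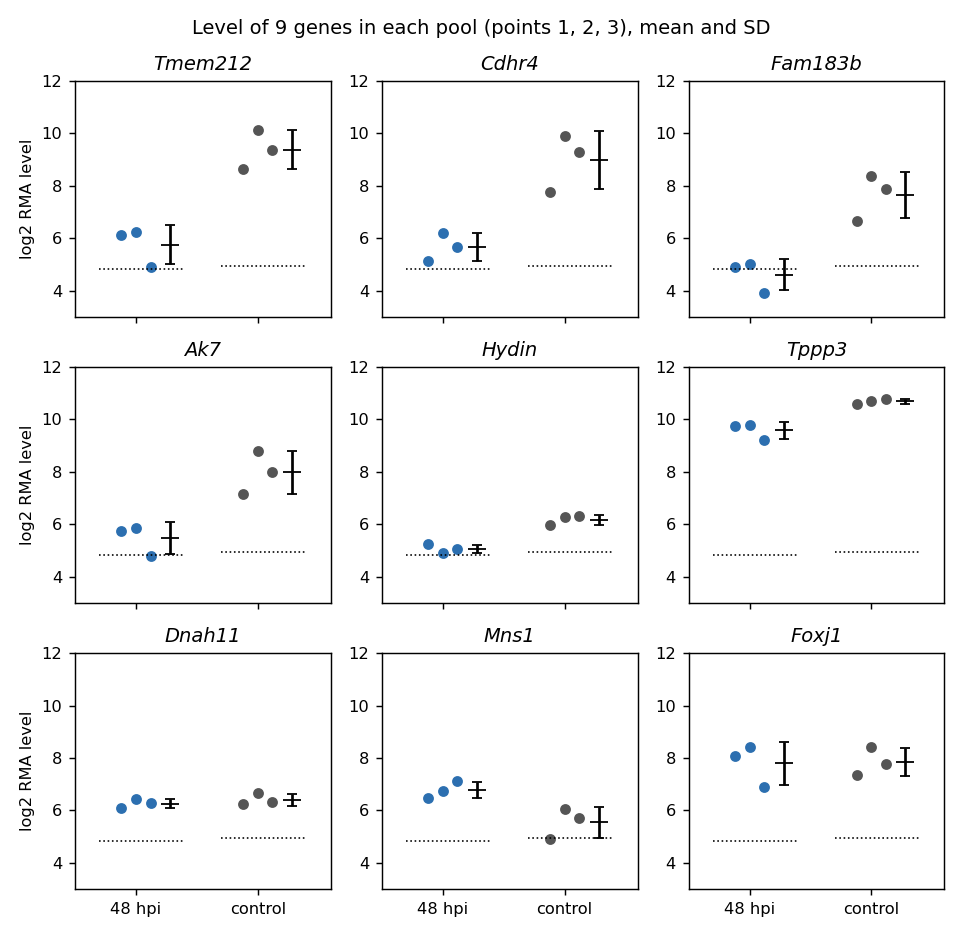
Log2 RMA level of 8 axoneme genes and of Foxj1 in each pool (points 1 to 3), with the mean and SD of each group beside them and the background level as a dotted line. The groups do not overlap in Tmem212, Cdhr4, Fam183b, Ak7, Hydin, Tppp3 and Mns1, and they overlap in Dnah11 and Foxj1.

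Outer dynein arms give cilia most of their beat frequency, and 5 of 6 of their genes were called lower. Dnah9, a heavy chain of the outer arm, read 4.56, 4.63 and 4.57 at 48 hpi, against 5.73, 6.79 and 5.99 in controls. The 48 hpi pools hardly differed from one another and all sat within background, so its fall is at least 2.56-fold (adjusted p = 0.0014). Dnal1, a light chain that binds the heavy chain motor, read 6.46, 6.60 and 5.74 at 48 hpi, against 6.85, 7.38 and 7.06 in controls, and fell by 0.83 (SE 0.23, adjusted p = 0.022).

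The remaining outer arm genes gave weaker or mixed values. Dnaic1, an intermediate chain, averaged 4.71 ± 0.08 at 48 hpi and 5.10 ± 0.23 in controls (SD, n = 3 each), a fall of at least 1.22-fold that ends within background (adjusted p = 0.042). The other Dnaic1 probe set, within background in both groups, was not called, and the mean of both did not pass the test (adjusted p = 0.13). Dnaic2, its partner intermediate chain, read 4.33, 4.54 and 3.72 at 48 hpi, against 4.61, 6.33 and 5.60 in controls, and fell at least 1.63-fold to within background (adjusted p = 0.032). Control pool 1 was close to the 48 hpi pools, and the other Dnaic2 probe set, within background in both groups, was not called. Dnah5, another heavy chain, was called lower (adjusted p = 0.0012) with both groups within background, at 3.74, 3.84 and 3.51 at 48 hpi against 4.54, 4.43 and 4.38 in controls.

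Dnah11, the third outer arm heavy chain gene on the list, stood apart from these. It read 6.07, 6.42 and 6.28 in the 48 hpi pools, against 6.25, 6.66 and 6.30 in the control pools. The groups overlapped, and although the gene was above background in both, its change of −0.15 did not pass the test (95% confidence interval −0.47 to 0.18, adjusted p = 0.47).

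Of the other dynein genes, Dnali1, a light chain of the inner arms, read 5.97, 6.02 and 5.56 at 48 hpi, against 6.17, 7.14 and 6.69 in controls. It fell by 0.82 (SE 0.24, adjusted p = 0.026), and its second probe set fell at least 3.58-fold to within background. Dynlrb2, a light chain of the roadblock family found in tissues with motile cilia, read 8.06, 8.31 and 6.42 at 48 hpi, against 8.94, 10.48 and 9.80 in controls. The fall of 2.14 (SE 0.53, adjusted p = 0.014) is 4.42-fold (95% confidence interval 1.90 to 10.3). Its paralog Dynlrb1, which serves cytoplasmic dynein in all cells, read 11.17, 11.17 and 11.13 at 48 hpi, against 11.12, 11.18 and 11.16 in controls, and changed by 0.00 (95% confidence interval −0.18 to 0.18).

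Dynein arms are put together in the cytoplasm before they enter the cilium, and Lrrc6 and Zmynd10 are factors in that step. Lrrc6 averaged 4.06 ± 0.42 at 48 hpi and 4.97 ± 0.50 in controls, and fell at least 1.11-fold to within background (adjusted p = 0.033). Zmynd10 read 5.74, 5.68 and 5.16 at 48 hpi, against 5.60, 6.61 and 5.84 in controls. Control pool 1 lay below a pair of the 48 hpi pools, and the change of −0.49 did not pass the test (95% confidence interval −1.09 to 0.12).

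The 3 tektin genes were all called lower, and all 3 lost the call without control pool 2, control pool 3 or 48 hpi pool 3. Tekt1 read 5.13, 4.99 and 4.65 at 48 hpi, against 5.14, 6.10 and 5.89 in controls. Its highest 48 hpi pool lay barely below control pool 1, and the fall of 0.79 (SE 0.24) had an adjusted p of 0.034. Tekt4 averaged 4.82 ± 0.28 at 48 hpi and 5.52 ± 0.45 in controls (adjusted p = 0.043), and was not called after repeated quantile normalization (adjusted p = 0.066). The 48 hpi mean of Tekt4 lay barely above background, and its 48 hpi pool 3, at 4.53, lay below it. On a common median neither passed the test (adjusted p = 0.054 for Tekt1 and 0.071 for Tekt4). Tekt2 averaged 3.48 ± 0.18 at 48 hpi and 4.14 ± 0.36 in controls, within background in both (adjusted p = 0.023).

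In the central pair, 3 of 4 genes were called lower. Hydin, whose protein forms a projection of the central pair, read 5.24, 4.91 and 5.04 at 48 hpi, against 5.96, 6.27 and 6.30 in controls. The groups were well separated, and the fall of 1.12 (SE 0.13, adjusted p = 0.00042) is 2.17-fold (95% confidence interval 1.77 to 2.66). Spag16 read 4.73, 4.54 and 4.06 at 48 hpi, against 5.11, 6.31 and 5.88 in controls, and fell at least 1.94-fold to within background (adjusted p = 0.0087). Spag17 read 3.82, 3.76 and 3.66 at 48 hpi, against 4.12, 5.11 and 5.16 in controls, and was called lower (adjusted p = 0.012), although both of its group means lay within background.

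Spag6 was the central pair gene not called. It stood at 2.52, 2.72 and 2.61 in 48 hpi pools, against 2.37, 2.48 and 2.32 in control pools. The probe set annotated to Spag6 was thus far below background in every pool, with all 48 hpi pools above all control pools by a small margin, and it was called higher only after either of the rescalings tried, on array medians and on spiked controls. The mouse genome carries a second copy, Spag6l, which is no member and was looked up after the Spag6 values had been seen. Spag6l read 4.58, 4.28 and 4.21 at 48 hpi, against 5.55, 6.63 and 6.29 in controls, and fell at least 2.54-fold to within background (adjusted p = 0.00098).

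The radial spoke genes fell together, all 4 of them by more than 1. Rsph4a, a protein of the spoke head, read 4.49, 5.07 and 3.58 at 48 hpi, against 5.81, 7.52 and 6.87 in controls. Its groups did not overlap, and its fall to within background is at least 3.79-fold (adjusted p = 0.0053). Rsph9, also of the spoke head, read 7.19, 7.07 and 6.19 at 48 hpi, against 7.86, 8.37 and 7.90 in controls, and fell by 1.23 (SE 0.26, adjusted p = 0.0073). Rsph1, the next spoke head gene, read 7.39, 7.58 and 6.53 at 48 hpi, against 7.78, 8.75 and 8.38 in controls (adjusted p = 0.021). Lrrc23, a spoke protein, was the one called gene whose groups overlapped, since 48 hpi pool 2 at 7.30 lay above control pool 1 at 7.27 (fall of 1.14, SE 0.37, adjusted p = 0.044).

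Ccdc39 and Ccdc40 form the ruler along the doublet that sets where the inner arms and links attach. Ccdc39 read 5.77, 6.11 and 5.09 at 48 hpi, against 6.19, 7.89 and 7.09 in controls, and fell by 1.40 (SE 0.41, adjusted p = 0.029). Its other 2 probe sets, within background in both groups, were not called, and the mean of the 3 did not pass the test (adjusted p = 0.064). Ccdc40 read 5.38, 5.56 and 4.71 at 48 hpi, against 5.62, 6.51 and 6.04 in controls, and fell by 0.85 (SE 0.27, adjusted p = 0.038). In both genes, control pool 1 was nearest to the injured pools. Ccdc65 and Iqcg, subunits of the nexin link complex, were within background in both groups and did not pass the test.

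The other ciliary genes moved both ways. Fam183b read 4.90, 5.02 and 3.92 at 48 hpi, against 6.66, 8.37 and 7.89 in controls. On the group means it fell at least 7.11-fold to within background (adjusted p = 0.0012), the steepest such bound among the axoneme genes. The lower end of its fitted 95% confidence interval is 4.04-fold. Ak7, an adenylate kinase of motile cilia, read 5.76, 5.87 and 4.78 at 48 hpi, against 7.14, 8.80 and 8.0 in controls. The groups were apart, and the fall of 2.51 (SE 0.42, adjusted p = 0.0024) is 5.69-fold (95% confidence interval 2.89 to 11.2). Ccdc113, a coiled-coil protein of the axoneme, averaged 3.69 ± 0.57 at 48 hpi and 5.24 ± 0.68 in controls, and fell at least 1.35-fold to within background (adjusted p = 0.011). Pifo, a protein of the ciliary base, averaged 7.01 ± 0.54 at 48 hpi and 8.10 ± 0.50 in controls (adjusted p = 0.025). Stk33, a protein kinase gene, averaged 3.64 ± 0.52 at 48 hpi and 4.44 ± 0.68 in controls, and passed the test only when control pool 1 was left out (adjusted p = 0.030), alone or with 48 hpi pool 3.

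Mns1, which codes for a filament protein inside the doublets, was the one gene of the list called higher. It read 6.47, 6.73 and 7.10 in the 48 hpi pools, against 4.89, 6.04 and 5.72 in the control pools. Every 48 hpi pool lay above every control pool, and the change of 1.22 (SE 0.28) had an adjusted p of 0.011. Within the injured group it was highest in pool 3, where 28 of the 35 genes were at their lowest. The call held when any single pool was left out.

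The spread within each group was shared by the genes, and it touches the test. Control pool 1 was the lowest of its group in 31 of the 35 genes, control pool 2 was the highest in 31, and 48 hpi pool 3 was the lowest of its group in 28. Over all genes the corresponding shares were 35.9%, 31.3% and 40.0%. Other ciliary genes, described below, shared this standing of the pools. The median deviation of the 35 genes from their control means was −0.88, −0.72 and −1.40 in the 48 hpi pools, and −0.52, 0.49 and 0.04 in the control pools. The genes are therefore not independent of one another, and their calls share the same pools. Over all probe sets, 48 hpi pool 3 correlated with the other 48 hpi pools at 0.990 and 0.992, against 0.996 between those. With control pool 1 and 48 hpi pool 3 both left out, a setting added after the values were seen, 27 genes were called lower and 1 higher.

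**Figure D3:**
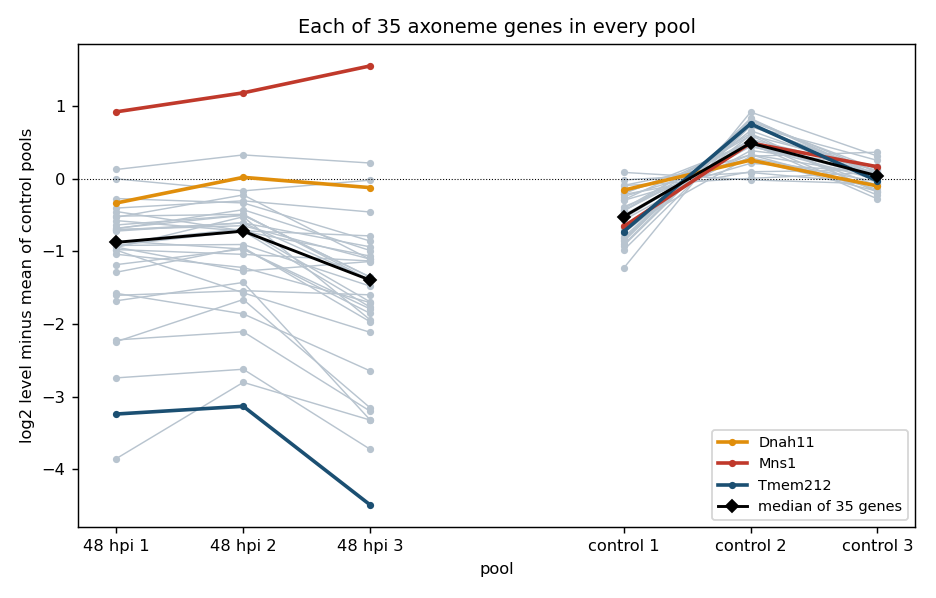
Level of each of the 35 axoneme genes in every pool, as log2 level minus the gene's mean over control pools (y axis), with a line joining the values of one gene within a group and the median in black. The median lies at −0.88, −0.72 and −1.40 in the 48 hpi pools and at −0.52, 0.49 and 0.04 in the control pools.

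Genes with a wider gap between control pools 1 and 2 tended to show the larger fall. Across the 35 genes, control pool 2 minus control pool 1 was compared with 48 hpi pool 1 minus control pool 3, a pair of differences that share no array. They correlated at r = −0.69 (Spearman's rho −0.68), at r = −0.65 (rho −0.47) across the 19 genes above background in both groups, and at r = −0.18 (rho −0.11) across all 18193 genes. The arrays were picked after the values had been seen, and genes are not independent replicates, so this is a description only.

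Genes with more than 1 probe set did not always give the same call on each. In a fit of all 45037 probe sets other than controls, 28 of the 50 axoneme probe sets were called lower, 1 higher and 21 neither, and 13.9% of all probe sets were called lower. These 28 do not stand for the 28 genes called lower, since 3 of them are probe sets not used for a gene. The used probe sets of Dnaic1, Tekt4 and Lrrc23 lost the call in this fit (limma adjusted p = 0.053, 0.053 and 0.055). Of the 15 probe sets not used for a gene, 13 were within background in both groups, and 12 of those were not called. In 7 genes (Dnah9, Dnaic2, Dnal1, Spag16, Spag17, Hydin and Ccdc39) the used probe set was called lower and another was not. Those others were within background in both groups. With the mean of probe sets the change was −0.33 in Spag16 and −0.34 in Dnal1, and both were still called lower (limma adjusted p = 0.025 and 0.021).

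To see whether the pattern extended along the same machine, 71 further genes of the axoneme were examined, of which 55 were measured. Of these 30 fell and 1 rose, with a median change of −0.83, and 43 of the 55 were above background in at least 1 group. The 4 with the smallest p were Dnaaf2, a dynein assembly factor, which rose by 1.20 (adjusted p = 0.00050), and Cfap43, Cfap54 and Dnah6. Cfap43 averaged 3.80 ± 0.24 at 48 hpi and 6.31 ± 0.79 in controls, a fall of at least 2.83-fold to within background. Cfap54 averaged 4.32 ± 0.35 at 48 hpi and 6.42 ± 0.60 in controls, a fall of at least 3.06-fold to within background. Dnah6, an inner arm heavy chain, averaged 5.13 ± 0.13 at 48 hpi and 7.16 ± 0.66 in controls (SD, n = 3 each). The count of 30 dropped to 18 without control pool 2 and 14 without control pool 3. Control pool 1 was again the lowest control pool, in 43 of the 55 genes.

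Genes of intraflagellar transport and the BBSome, which carry cargo into cilia of all kinds, moved less. Of 31 measured, 14 fell and 2 (Ift27 and Ift52) rose, with a median change of −0.36. In these 31 genes control pool 1 was the lowest control pool in 28 and control pool 2 the highest in 23. In 28 of them 48 hpi pool 3 was the lowest of its group. The 4 with the smallest p, Bbip1, Bbs2, Bbs4 and Bbs1, fell by between 0.70 and 1.01. Cytoplasmic dynein genes, 12 of them measured, had a median change of 0.02. Among them Dync1li2 and Dynll1 rose by 0.57 and 0.31, and Dynlt3 and Dynll2 fell by 0.43 and 0.28.

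Centriole genes went mostly the other way. A multiciliated cell amplifies its centrioles to make a basal body for each cilium, and many of the same genes duplicate centrioles in dividing cells. Of 16 measured, 10 rose and 1 fell, with a median change of 0.56. Plk4, the kinase that starts centriole duplication, averaged 9.25 ± 0.18 at 48 hpi and 6.15 ± 0.18 in controls, a rise of 3.10 (adjusted p = 3.3e-06). Stil, Sass6 and Cenpj rose by 2.63, 1.41 and 0.80, and Cetn4, a centrin, fell by 1.55 (adjusted p = 0.0061). Deup1, which is specific to the amplification in multiciliated cells, averaged 7.62 ± 1.07 at 48 hpi and 6.59 ± 0.39 in controls, and did not pass the test (adjusted p = 0.13). It read 7.96, 8.48 and 6.43 at 48 hpi, against 6.30, 7.04 and 6.44 in controls, so that only 48 hpi pool 3 lay among the control pools or below them. The proliferation marker Mki67, looked up after these values were seen, averaged 10.77 ± 0.21 at 48 hpi and 7.30 ± 0.08 in controls, and its part in the centriole result was not tested.

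**Figure D4:**
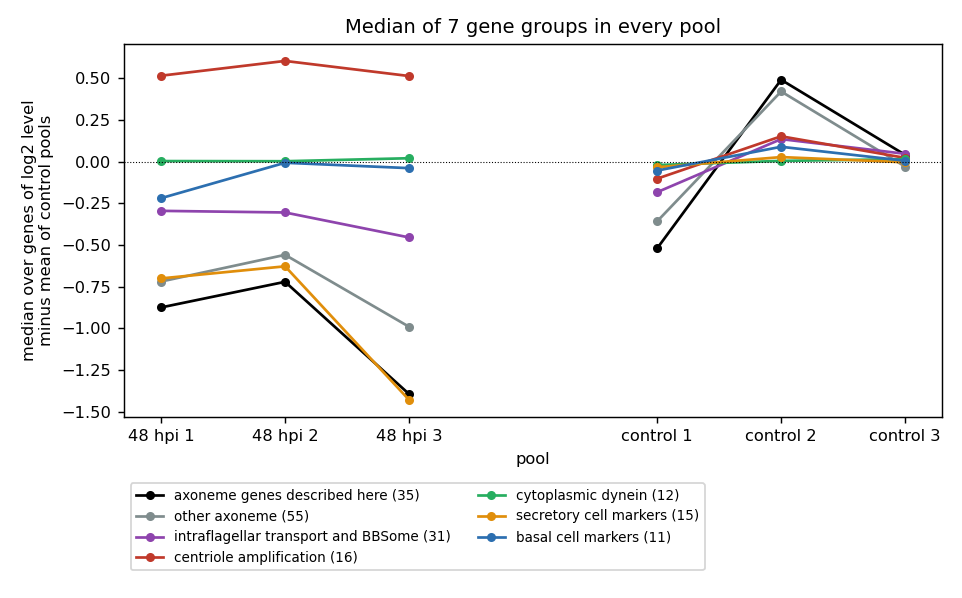
Median over the genes of 7 groups of the log2 level minus the control mean (y axis) in every pool, with the number of genes measured in brackets. The 35 axoneme genes and the other axoneme genes lie below 0 in every 48 hpi pool and spread in control pools, while cytoplasmic dynein stays near 0 and centriole amplification lies above it at 48 hpi.

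Of 10 transcription factors and regulators of multiciliated cells that were measured, 1 (Myb, by 1.19, adjusted p = 0.0035) rose and 9 did not pass the test, with a median change of 0.12. Foxj1 itself read 8.09, 8.43 and 6.88 in the 48 hpi pools, against 7.34, 8.41 and 7.76 in the control pools. The groups overlapped, with 48 hpi pool 3 the lowest and 48 hpi pool 2 the highest of all pools. Its change of −0.04 (SE 0.40, adjusted p = 0.95) has a 95% confidence interval from −0.97 to 0.89. Relative to Foxj1 in the same pool, the median deviation of the 35 genes was −1.13, −1.32 and −0.43 at 48 hpi, and −0.03, −0.08 and 0.12 in controls. These differences carry the wide spread of Foxj1 and are no correction for the number of ciliated cells. Their cause was not tested. Rfx2 and Rfx3 changed by 0.23 and −0.45 (adjusted p = 0.076 and 0.091), and Ccno, which acts early in centriole amplification, by 1.19 (adjusted p = 0.055). Ccno read 7.88, 8.24 and 6.38 at 48 hpi, against 6.29, 6.53 and 6.11 in controls, so that only 48 hpi pool 3 lay among the control pools.

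Stretches of promoter that hold the core of the RFX binding site are shown here, because many genes of the list hold it and it played no part in choosing them. The core was searched as GTTGCCA or GTTGCTA on both strands, from 250 bases before to 50 bases after each start in RefSeq promoters of mouse build GRCm38.p6. Of the 35 genes, 30 have a promoter in that table. Each stretch below is written 5′ to 3′ along the gene's own strand, with the core or its reverse complement in capitals. Dynlrb2, Cdhr3, Hydin and Tekt1 fell, Ccdc65 was not called and Mns1 rose.
Dynlrb2 (chr8:116504948-116504998, plus strand): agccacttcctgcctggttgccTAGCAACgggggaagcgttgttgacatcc
Cdhr3 (chr12:33092854-33092904, minus strand): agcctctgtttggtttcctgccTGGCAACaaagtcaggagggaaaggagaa
Hydin (chr8:110266941-110266991, plus strand): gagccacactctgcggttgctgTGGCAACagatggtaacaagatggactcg
Tekt1 (chr11:72361869-72361919, minus strand): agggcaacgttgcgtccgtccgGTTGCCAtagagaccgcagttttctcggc
Ccdc65 (chr15:98708159-98708209, plus strand): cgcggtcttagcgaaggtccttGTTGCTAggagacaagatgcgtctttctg
Mns1 (chr9:72438434-72438484, plus strand): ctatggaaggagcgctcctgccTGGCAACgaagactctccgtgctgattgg

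The motif was present in 14 of the 30 genes (46.7%), against 8.77% of the 27025 genes in the table and 8.65% of those tested on the array. It was present in 10% of the genes outside the list that were called lower, in 55.8% of the other axoneme genes, in 33.3% of the intraflagellar transport and BBSome genes, and in 0 of 9 secretory marker genes. Some genes have more than 1 promoter in the table, and of the 17 matches in the 14 genes 12 were centred within 50 bases of the start. Matches were centred 42, 4, 11 and 12 bases before the start in Dynlrb2, Cdhr3, Hydin and Tekt1, 10 before it in Ccdc65 and 70 before it in Mns1.

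**Figure D5:**
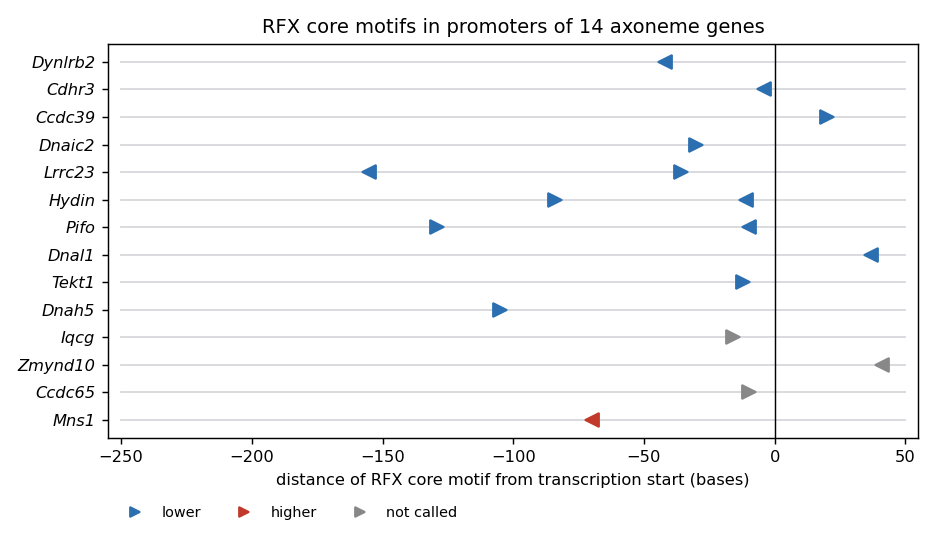
Position of each RFX core motif (GTTGCCA or GTTGCTA) in the promoters of 14 axoneme genes, as distance from the transcription start in bases (x axis); triangles pointing right are on the gene's strand, those pointing left are on the other, and colour gives the call at 48 hpi. Of 17 matches, 12 lie within 50 bases of the start.

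Genes were called lower both with and without the motif. Among the 14 genes with a match 10 were called lower, 1 higher and 3 neither. Among the 16 without one, 14 were called lower and 2 neither. A match is a run of letters and no measured binding site. The forkhead core TGTTTAC, searched in the same way, was present in 1 of the 30 genes (Ak7, 3.33%), against 4.05% of all genes in the table. The other axoneme genes held it in 6.98% of cases.

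Markers of other cells moved as well, and their part in the fall of the axoneme genes was not tested. Of 15 secretory cell markers 11 fell and 4 did not pass the test (median −0.96), and their summed linear level ranged from 75925 to 132221 in 48 hpi pools and from 182769 to 188518 in control pools. That sum is carried by 9 markers, Scgb1a1 and Bpifa1 among them, with control means of at least 13, near the top of the array's range at 14.6, where differences may be compressed. The other 6 summed to 2416 to 7560 at 48 hpi and 13043 to 16149 in controls. The corresponding sums for the 35 axoneme genes were 1804 to 2997 at 48 hpi and 4704 to 9461 in controls. Tff2, Lypd2, Muc5ac and Bpifb1 had the smallest p among secretory markers, with falls of between 1.03 and 2.86. Control pool 1 was the lowest control pool in 8 of the 15 secretory markers, and the median deviations of the 6 below the top of the range were −0.13, 0.19 and −0.12 in the control pools. In 48 hpi pool 3 the secretory and the axoneme genes were both at their lowest median.

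Of 11 basal cell markers 3 rose (Krt14, Itga6 and Krt5, by 3.18, 0.80 and 0.69) and 4 fell (Cav1, Dapl1, Ngfr and Pdpn, by 1.05, 0.95, 0.66 and 0.35). The other 4, Trp63 among them, did not pass the test. The median change of the 11 was −0.09, with summed levels of 23175 to 25642 at 48 hpi and 21313 to 22558 in controls. Of 7 markers of rare epithelial cells 4 fell (Trpm5, Ascl3, Dclk1 and Foxi1), with Dclk1 and Foxi1 within background in both groups. The 7 markers summed to 177 to 251 at 48 hpi and 309 to 335 in controls. Leukocyte markers summed to 235 to 269 at 48 hpi and 287 to 310 in controls, with 1 of 9 called (Csf1r, lower). Of the 9, 3 (Cd68, Csf1r and Cd3e) were above background in both groups. Ptprc, which codes for CD45 and defines leukocytes, averaged 2.83 ± 0.02 at 48 hpi and 3.04 ± 0.11 in controls, within background. Mesenchymal and endothelial markers summed to 514 to 950 at 48 hpi and 1392 to 1861 in controls, with 2 of 14 called lower (Dcn and Myh11) and a median change of 0.04. Myh11 was within background in both groups. Dcn made most of the sum in controls, and without it the other 13 summed to 295 to 429 at 48 hpi and 286 to 334 in controls.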

How the data were processed

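Epithelium of 3 pools at 48 hpi was compared with that of 3 control pools, each from 4 tracheas, as the labels group them. Mesenchyme was not analysed here. The deposited values are log2 RMA levels made by the authors in Partek 6.5, and the submitters' processing notes also name Affymetrix Expression Console 1.1. Values ranged from 2.01 to 14.6, with no detection calls.

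Of 45101 probe sets, 64 control probe sets were left out. The annotation gives 34958 probe sets 1 symbol, 932 several and 9211 none. A gene with several probe sets was read from the brightest one on average, which gave 18193 genes. Differences were tested in R 4.3.3 by limma 3.58.1, whose lmFit and eBayes were run across all genes with Benjamini-Hochberg adjustment and a threshold of 0.05, and the script was checked on simulated data. The study's analysis of variance spanned both tissues and was not repeated, so the error here comes from the epithelium alone and is moderated by limma. P-values set the difference between groups against the spread between pools, which limma draws towards a variance shared over all genes. The number of arrays limits the precision. An exact permutation test of 3 against 3 pools cannot give a two-sided p below 0.1 and was not used. Fold changes from RMA are usually compressed.

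All 35 member genes were named, with the 4 called genes of smallest p in each comparison list where a result turned on them. Members and lists were chosen with earlier results of these data known, and no list was tested as a set. Promoters were read from RefSeq tables with Python 3.11.15, and figures were drawn with matplotlib 3.10.9. Alternatives covered the variance model, the normalization, the filter on dim probe sets, the choice of probe set, array weights, the threshold, a replicate block and the leaving out of each pool, and 1 was added after the data were seen.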

Additional observations from a re-analysis of the deposited data

How the results depend on the processing

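The count of axoneme genes called lower, 28, stayed between 22 and 28 under another variance model, repeated quantile normalization, a common median, a filter on dim probe sets, the mean of probe sets, the removal of x and s probe sets and array weights. It was 20 with equal hybridization controls, 19 for changes of at least 1, 12 at an adjusted p below 0.01, and 7 with a plain t-test, without limma's shared variance, after adjustment, where 16 genes were lower at an unadjusted p below 0.05. Leaving out 1 pool at a time gave 15 to 28, and leaving out a pool also removes samples from the test. Over all genes, 10.6% were called lower with the plain t-test after adjustment. With 1 pool left out the share was 13.1% to 15.9%, against 17.5% as reported. The genes called higher numbered 2 after arrays were scaled to a common median, 2 under equal hybridization controls, 0 at an adjusted p below 0.01 (Mns1 had 0.011) and 0 with the plain t-test (2 at an unadjusted p below 0.05). Of the other axoneme genes 6 were called lower with that test and 12 at an adjusted p below 0.01, 14 to 32 with 1 pool left out, and 33 without both control pool 1 and 48 hpi pool 3. The median change of the 35 genes was −0.73 with equal hybridization controls, a scaling on spiked transcripts that moves the median of all genes to 0.34 and its calls to 4832 higher and 848 lower (3527 and 3191 as reported), and −1.23 to −0.78 with 1 pool left out. Relative to the median of all genes it was −1.07 under that scaling and as reported. Of the 29 genes called, 23 lost the call under at least 1 alternative. The sign changed for Dnah11 with equal hybridization controls (0.21), for Dnaic2 without x and s probe sets (0.067), and for Ccdc65 with a common median (0.019), with equal hybridization controls (0.30) and with pools left out (−0.23 to 0.043, above 0 without control pool 2), and none of these passed the test where its sign changed. The cause of these changes was not tested.

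The replicate numbers were not taken to pair the pools. Deviations of same-numbered pools correlated at 0.07, 0.16 and 0.03, and those of other pairs at −0.14 to 0.04. Such low values cannot settle whether the numbers pair the pools. With the replicate number as a block, 29 genes were called lower and 1 higher, and the median change was −1.09. Signals near background limit 16 of the 35 genes, which were within it in at least 1 group.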
